A study of Rattus norvegicus with 8 samples.

Results

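The tiles described here were 1 kb stretches of the rat genome with few measured CpGs, more than 2 tiles from any tile with many measured CpGs, and almost free of CG methylation in both brain tissues. A CpG dyad, meaning a CpG with the calls of its listed strands added, was counted where all 8 libraries had 10 or more calls at it. A tile was a member if it held 3 to 10 such dyads, had no tile of 21 or more dyads within 2 tiles, and had a methylation level (methylated calls over all calls) under 10% in each of the 8 libraries. On chromosomes 1 to 20, 4603 tiles met this rule, which is 5.92% of the 77785 tiles that met it apart from the level. In all, 140156 tiles held at least 1 measured dyad. The members were selected on their CG levels in all 8 libraries, and those levels are given as a description, with no test read from them.

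Reduced representation bisulfite sequencing (RRBS) was run on bulk hippocampus and hypothalamus, with 4 libraries per tissue. All 8 libraries, in both groups, came from male Sprague Dawley rats that were 2 months old when assigned to a diet and then received a diet with DHA (docosahexaenoic acid, a fatty acid of the omega-3 class) over 6 weeks, so tissue was the sole contrast. The treatment text of the labels also names fructose, which no label gives for any of these libraries, and chow-fed animals were not analysed here. RRBS cuts DNA with MspI at CCGG, so only CpGs near such sites are read, and bisulfite converts unmethylated cytosine so that it is read as T.

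CpG islands are CpG-rich stretches, many of them at promoters, that mostly stay unmethylated, while most CpGs elsewhere in the mammalian genome are methylated. Stretches of low methylation outside islands include promoters of lower CpG content and distal regulatory elements. In adult brain, neurons also carry methylation outside CG, mostly at CA, which DNMT3A deposits after birth.

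The libraries held 178178404 to 625653602 listed calls, fewest in hypothalamus 3. Dyads were sorted in each library as low (at most 10%), intermediate (35% to 65%) or high (90% or more). Among dyads with 20 or more calls and a class in all 8 libraries, 96 were kept because at least 1 library was low and at least 1 was high, so they were picked for varying between libraries. The class was the same at 98.96% of them for the libraries numbered 1 of both tissues and at 100% for those numbered 4. The other 26 pairs of libraries shared 28.1% to 41.7%. Tests between tissues, which take the libraries as independent, therefore rest on fewer than 8 separate sources if such pairs come from 1 animal, which the labels do not say. The labels name no animals, so p-values measure only the spread between these libraries. In bulk tissue, a level shared by all cells and a mixture of cell types cannot be told apart, and methylation calls hold no expression of marker genes with which to check the tissue labels.

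The word sparse held for the measured dyads but not fully for the tiles themselves. Counting dyads listed in any library, members had a median of 10 per tile (quartiles 7 and 18), against 5 in the other 73182 tiles that met the rule apart from the level. Under this count 2380 members (51.7%) still had at most 10 dyads and 867 (18.8%) had 21 or more, against 89.5% and 0.721% of the other tiles. Neighbouring measured dyads lay a median of 14 bases apart in members, 30 in the other tiles and 8 in unmethylated dense tiles, which are the 4142 tiles of 21 or more dyads with a level under 10% in each library. CG made up 17.5% of the cytosines listed in members, 11.3% in the other tiles and 28.3% in the dense ones. In spacing and in the share of CG the members lay between the 2 comparison classes. The dense class was picked for many measured dyads, so its place in this order follows in part from the rule.

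The deposited tables hold positions and no gene names. Promoter windows of RefSeq (assembly GRCr8), 300 bases each around a gene's start, were therefore placed on the deposited rn5 positions by their cytosine pattern, and no coordinate was converted. Of 33469 windows, 8753 matched at exactly 1 place, 97.6% of those on the chromosome RefSeq gives, and 3 matched when the windows were read backwards. The match needs a run of listed cytosines, so windows outside MspI fragments could not be placed. The windows below are shown because they span the range of members, from few CpGs to many. They were chosen after their values were seen. Each runs 5′ to 3′ on the gene's strand, and capitals mark the CpG dyads measured in all 8 libraries.

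Bace1 encodes beta-secretase, which cuts the amyloid precursor protein. Its window (chr8:48765755-48766054, plus strand) held 5 CpGs, 4 of them measured.

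Bace1: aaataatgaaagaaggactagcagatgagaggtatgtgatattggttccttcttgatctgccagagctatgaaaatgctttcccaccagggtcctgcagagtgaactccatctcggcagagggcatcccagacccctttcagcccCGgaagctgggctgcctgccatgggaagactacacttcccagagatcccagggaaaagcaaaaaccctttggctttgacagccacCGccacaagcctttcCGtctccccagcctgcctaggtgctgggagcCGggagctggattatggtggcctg

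Apoe encodes the main lipid carrier of the brain and has 2 windows here. The first, in a member (chr1:81880954-81881253, minus strand), held 12 CpGs with 6 measured. The second, in a tile that failed the level (chr1:81882249-81882548, minus strand), held 3 CpGs with 2 measured.

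Apoe, member: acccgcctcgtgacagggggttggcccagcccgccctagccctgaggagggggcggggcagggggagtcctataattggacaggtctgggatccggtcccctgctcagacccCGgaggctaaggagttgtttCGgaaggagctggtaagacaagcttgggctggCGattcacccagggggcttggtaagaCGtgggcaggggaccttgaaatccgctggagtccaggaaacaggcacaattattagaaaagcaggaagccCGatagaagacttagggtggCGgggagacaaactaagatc

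Apoe, other tile: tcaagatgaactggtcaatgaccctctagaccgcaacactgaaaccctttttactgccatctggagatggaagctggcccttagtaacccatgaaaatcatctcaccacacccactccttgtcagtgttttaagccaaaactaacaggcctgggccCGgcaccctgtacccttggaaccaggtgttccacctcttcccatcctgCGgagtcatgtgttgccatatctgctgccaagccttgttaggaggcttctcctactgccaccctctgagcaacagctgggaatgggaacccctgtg

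Bsn encodes bassoon, a scaffold protein of the presynaptic active zone. Its window (chr8:116319022-116319321, minus strand) held 39 CpGs, of which 2 were measured.

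Bsn: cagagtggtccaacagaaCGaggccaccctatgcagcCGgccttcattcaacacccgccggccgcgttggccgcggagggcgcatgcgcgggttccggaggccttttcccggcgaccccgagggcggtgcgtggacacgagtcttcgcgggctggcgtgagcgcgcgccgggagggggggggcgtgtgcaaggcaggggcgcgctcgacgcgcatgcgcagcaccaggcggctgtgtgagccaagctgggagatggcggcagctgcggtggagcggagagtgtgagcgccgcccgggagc

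Pomc encodes the precursor of melanocortin peptides made by neurons of the hypothalamus. Its window (chr6:38191739-38192038, plus strand) held 23 CpGs with 5 measured.

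Pomc: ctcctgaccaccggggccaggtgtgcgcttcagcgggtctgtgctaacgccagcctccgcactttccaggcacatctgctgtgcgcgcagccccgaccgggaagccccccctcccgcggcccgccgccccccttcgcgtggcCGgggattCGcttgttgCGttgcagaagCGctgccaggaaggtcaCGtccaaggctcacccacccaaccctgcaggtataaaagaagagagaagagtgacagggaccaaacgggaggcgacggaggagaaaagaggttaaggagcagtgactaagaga

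Tet1 encodes an enzyme that oxidises 5-methylcytosine. Its window (chr20:29215463-29215762, plus strand) held 16 CpGs with 6 measured.

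Tet1: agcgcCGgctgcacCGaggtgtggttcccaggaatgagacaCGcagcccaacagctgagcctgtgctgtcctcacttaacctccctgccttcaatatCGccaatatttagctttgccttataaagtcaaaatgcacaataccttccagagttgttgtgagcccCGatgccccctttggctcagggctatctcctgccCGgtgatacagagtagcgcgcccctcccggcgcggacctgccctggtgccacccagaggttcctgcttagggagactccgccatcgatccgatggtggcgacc

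The windows of Bace1 and Bsn both counted as sparse in measured dyads, while the sequence of Bsn is dense in CpG and that of Bace1 is not. The Bace1 window had an observed over expected CpG ratio of 0.223 and a GC content of 54.7%. For Bsn the ratio was 1.004 and the GC content 73%. The tile that holds the Bsn window had 5 dyads measured in all libraries and 20 listed in any.

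Among all 829 windows whose measured dyads lay mostly in members, the median CpG count was 20. It was 8 in the 643 windows of the other tiles, 28 in the 2112 windows of dense unmethylated tiles and 7 over all RefSeq windows. The windows of these 3 classes came from 765, 558 and 1953 genes. Windows of the same gene that start at different bases were counted separately, here and for the motifs. The median observed over expected ratio was 0.744 in members, 0.401 in the other tiles and 0.872 in the dense ones. A GC content of 55% or more together with a ratio of 0.65 or more, a composition often used to define islands, was found in 57.7% of member windows, 6.53% of the other windows and 85.2% of the dense ones. Measured dyads made up 29.0% of the CpGs of member windows, 44.2% of those of the other windows and 53.9% of those of dense windows. At these windows, then, the data went against calling the members CpG-sparse and away from islands, since most had island-like composition. The dyads measured were the smaller share of their CpGs, as they also were in the other windows. Only 26 member windows (3.14%) had 7 CpGs or fewer, the median of all RefSeq windows. Of the other windows 271 (42.1%) did, and of the dense windows 6 (0.284%). Some of the 26 were nearly the same window of the same gene, as for Hnrnpcl1 and Papln.

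**Figure D1:**
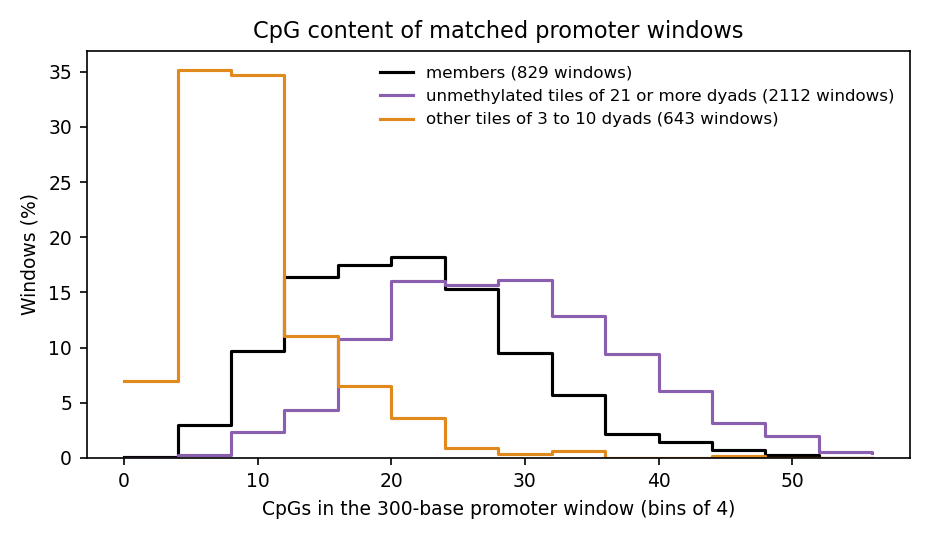
CpGs in each matched 300-base promoter window (x axis, bins of 4) against the percent of windows (y axis) for members, unmethylated tiles of 21 or more dyads and other tiles of 3 to 10 dyads. The member curve lies between the others, with medians of 20, 28 and 8 CpGs.

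A matched promoter window overlapped a measured dyad in 841 members (18.3%), in 598 of the other tiles (0.817%) and in 1791 of the dense unmethylated tiles (43.2%). Put the other way, 58.4% of the 1439 tiles of 3 to 10 dyads with a matched window were members. The contrast was present at each dyad count, with 15.6% of members against 0.596% of other tiles at 3 to 4 dyads, and 22.1% against 1.43% at 8 to 10 dyads. Of members with at most 10 dyads in any library, 14.1% had a window. Protein-coding genes made up 90.1% of member windows, 52.6% of the other windows and 88.4% of the dense windows. In 63 members, windows of genes on both strands were present. These shares describe placed windows and carry no test, and the remaining members have no gene named here.

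Motifs were searched on both strands as exact letters. The GC box GGGCGG was present in 64.8% of member windows, 27.2% of other windows, 75.9% of dense windows and 33.1% of all RefSeq windows. The ETS core CCGGAAG was in 23.4%, 10.4%, 19.0% and 8.75%. That core contains the MspI site CCGG, which was in 51.4% of all RefSeq windows and in 100% of member windows, since RRBS reads start there. The palindromic NRF1 motif was in 2.53% of member windows, 0.467% of other windows, 1.99% of dense windows and 0.852% of all. The TATA box TATAAA was in 6.39% of member windows, 10.9% of other windows, 4.50% of dense windows and 14.2% of all. The CCAAT box was in 40.4% of member windows, 33.9% of other windows, 36.9% of dense windows and 37.5% of all. The E-box CACGTG was in 10.01%, 5.60%, 10.3% and 6.42%, and the cAMP response element TGACGTCA in 2.77%, 2.18%, 4.36% and 1.83%. For the GC box, TATA box, E-box and cAMP response element the member share lay between those of the other and the dense windows. For the ETS core, the NRF1 motif and the CCAAT box it was above both. These are letter matches and say nothing about binding.

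Gene groups were counted by gene, a gene being in members if at least 1 of its windows was, and are given beside the same count over all genes with a measured dyad in a window, 765 of 5389 (14.2%). The groups were chosen after gene symbols of members were seen, so their counts are descriptions. Of genes for neuronal signalling, 5 of 12 measured transmitter genes were in members. They were Slc17a6 (a vesicular glutamate transporter), Slc6a5 (a glycine transporter), Gabrb2 (a GABA-A receptor subunit), Grm7 (a metabotropic glutamate receptor) and Htr1b (a serotonin receptor). Among neuropeptide precursors, 2 of 6 were in members, Pomc and Scg2 (secretogranin II of dense-core vesicles). Of enzymes and readers of DNA methylation, 2 of 7 were in members, Tet1 and Tet3, and 4 were in dense unmethylated tiles. Among glial and vascular markers, Apoe and Vim (an intermediate filament) were 2 of 6, while 3 of the 6, Apoe with its second window among them, had a window in the other tiles that failed the level.

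Further gene groups were counted in the same way. Members held 8 of 23 measured genes of the mitochondrial ribosome, 7 of 15 Vps genes of vesicle sorting, 5 of 15 proteasome genes and 5 of 12 aminoacyl-tRNA synthetases. They held 21 of 84 zinc finger genes and 8 of 30 genes of the cilium and axoneme. Of translation initiation factors 3 of 27 (11.1%) were in members and 14 in dense unmethylated tiles. Of homeobox and forkhead factors these counts were 2 of 32 (6.25%) and 13. The last 2 shares were below 14.2% and the other shares above it, and none was tested. A single measured protocadherin gene of 3, Pcdh18, was in a member.

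CG levels at the promoter windows were low in each library shown. The Bace1 window had 0.362%, 0.258%, 2.67% and 3.99% in hippocampus libraries 1 to 4 and 2.10%, 0.175%, 1.504% and 2.39% in hypothalamus libraries 1 to 4, on 133 to 571 calls per library. The tissues overlapped, with means of 1.82% ± 1.82 and 1.54% ± 0.983 (SD, n = 4 each). At Tet1 the levels were 0.651%, 0.200%, 3.48% and 3.09% in hippocampus and 1.04%, 0%, 0.408% and 0.478% in hypothalamus. Hypothalamus 2 had no methylated call at Tet1, and 209 or more calls stood behind each library's value there. Hippocampus 3 and 4 were the highest libraries at both genes.

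Pomc had the highest mean in each tissue among the 19 member windows plotted. Its levels were 5.43%, 3.56%, 7.25% and 9.34% in hippocampus and 4.51%, 8.39%, 4.52% and 8% in hypothalamus, on 75 to 289 calls. The tissue means were 6.40% ± 2.48 and 6.36% ± 2.13 (SD, n = 4 each), and the libraries overlapped. Scg2 was lower, at 2.13% ± 1.66 and 1.22% ± 1.39. Slc17a6 had 3.35% ± 1.97 and 2.01% ± 1.42, and Htr1b had 2.02% ± 2.17 and 1.90% ± 2.17 (SD, n = 4 each).

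Genes of other kinds also had low levels. Polr2a, the large subunit of RNA polymerase II, had 1.60% ± 1.63 in hippocampus and 0.245% ± 0.380 in hypothalamus. Cat, which encodes catalase, had 1.80% ± 1.24 and 0.403% ± 0.220. Nfe2l2, a transcription factor of the antioxidant response, had 1.15% ± 0.775 and 0.974% ± 1.18. Nkx2-5, a homeobox factor best known from heart, had 4.06% ± 1.10 and 3.45% ± 0.711 (SD, n = 4 each).

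**Figure D2:**
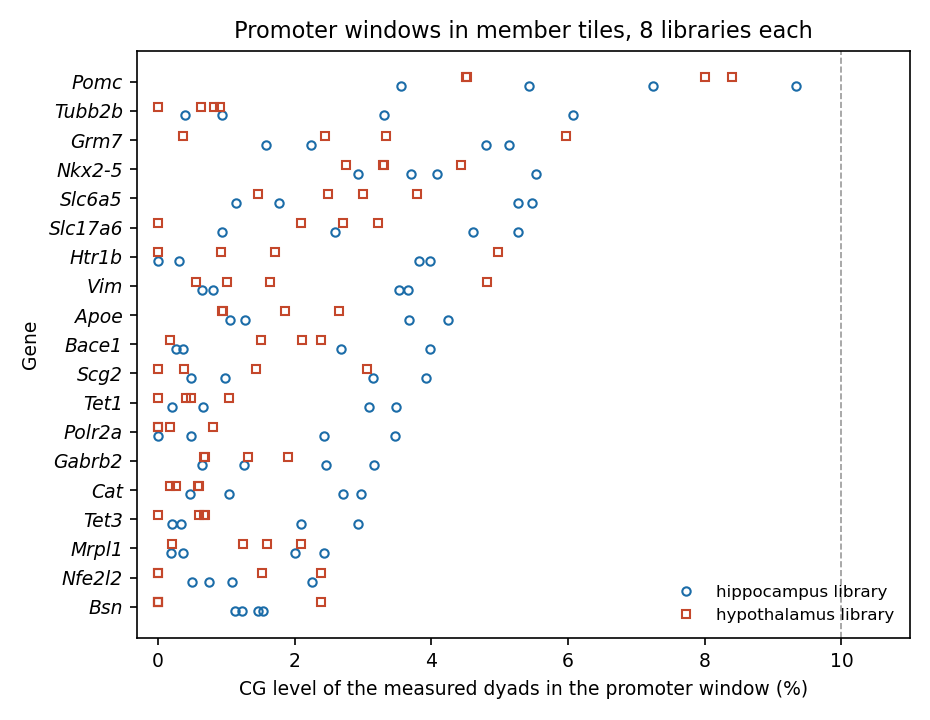
CG level in percent (x axis) of the measured dyads of 19 promoter windows in member tiles (y axis, genes), 1 point per library, with hippocampus as circles and hypothalamus as squares; the dashed line is the level limit of the rule for whole tiles. Pomc reaches 9.34%, and the points of the tissues overlap for Pomc, Bace1 and Htr1b.

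The 2 Apoe windows, about 1 tile apart, were far apart in level. The member window had 1.06%, 1.27%, 3.68% and 4.24% in hippocampus and 2.65%, 0.938%, 0.948% and 1.86% in hypothalamus. The other window had 43.4%, 43.9%, 44.4% and 53.9% in hippocampus and 49.1%, 53.3%, 58.8% and 80.6% in hypothalamus, on 34 to 165 calls and 2 dyads. The tissue means of the second window were 46.4% ± 5.03 and 60.5% ± 13.97 (SD, n = 4 each), and its libraries overlapped. A low tile level also did not make each window in it low. The window of Knstrn, a gene for a mitotic spindle protein, had 3 CpGs, and its 2 measured dyads stood at 16.5% ± 7.01 in hippocampus and 20.2% ± 6.37 in hypothalamus, inside a member of 10 dyads. For Rsad2, an interferon-induced antiviral gene, the window held 4 CpGs and had 4.72% ± 2.52 and 10.1% ± 2.76 (SD, n = 4 each). Knstrn and Rsad2 were picked after their values were seen.

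Across all members, the median CG level was 0.752%, 0.620%, 3.12% and 3.21% in hippocampus libraries 1 to 4 and 1.74%, 0.601%, 0.870% and 1.73% in hypothalamus libraries 1 to 4. In the other tiles it was 82.4% to 86.7%, and in dense unmethylated tiles 0.418% to 2.75%. Cytosines outside CG that are followed by C, written CC, are seldom methylated in mammals. Inside members the values were 0.309%, 0.283%, 1.65% and 1.73% in hippocampus and 0.929%, 0.255%, 0.352% and 0.964% in hypothalamus. The libraries with high CG levels in members were those with high CC levels, and the part of CC in the CG values was not tested. No conversion control was used here, so unconverted cytosine and methylation cannot be told apart in levels of this size, CA included.

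**Figure D3:**
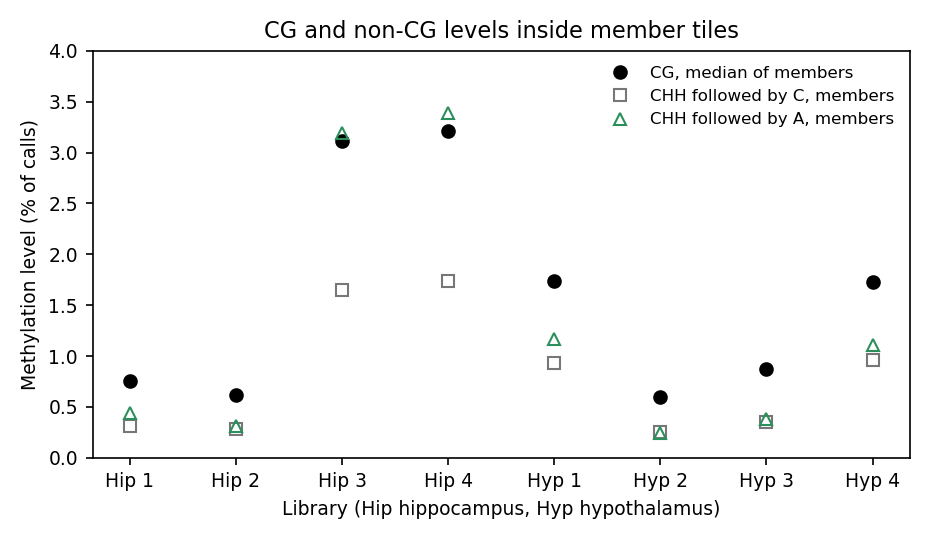
Methylation level in percent of calls (y axis) inside the members for each library (x axis), as the median CG level of member tiles and as pooled levels at CHH cytosines followed by C or by A. All 3 are highest in hippocampus 3 and 4, where the median CG level is 3.12% and 3.21%.

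Single dyads inside members followed the tile. Of 30498 member dyads, 28029 (91.9%) had a mean level under 5% and 66 (0.216%) had 20% or more, with a highest value of 96.1%. Dyads that failed the requirement of calls in all 8 libraries took no part in the rule. Members held 31765 such dyads, of which a library listed 7754 (hypothalamus 3) to 28956 (hypothalamus 2), and the level at them was 1.79% to 4.05% by library. The other tiles held 109470, with levels of 68.9% to 74.8%. In dense unmethylated tiles the level at such dyads was 1.08% to 3.29%, so low levels there were not particular to members. Low methylation was thus also measured at dyads the rule did not use, although they lie in the same tiles and fragments.

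Most members stayed well under the limit. All 8 levels were under 5% in 3291 members (71.5%) and under 2% in 72, and the highest library level of a member had a median of 3.78%. No member was without a methylated call in all libraries. The tile chr3:145027001-145028000 came closest, with 1 methylated call in 803. The highest level over the 8 libraries was 8.23%, at chr2:260865001-260866000. Just inside the limit, the tile chr10:12701001-12702000 had 9.98% in hypothalamus 4, and just outside, chr3:89861001-89862000 had 10% in hypothalamus 3 and 2.20% to 5.74% in the other libraries. Coverage was highest at chr2:71371001-71372000, with 1573 calls per dyad and library, against a median of 70.5 over members.

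Between the tissues the CG levels of members differed by little. The mean difference, hypothalamus minus hippocampus, had a median of -0.645 points, with 5th and 95th percentiles of -1.73 and 1.15 and extremes of -5.43 and 5.53. All hypothalamus libraries lay above all hippocampus libraries in 18 members and below them in 64. Over all tiles with 3 or more dyads these shares were 12.8% and 3.16%. The rule used these levels and a limit of 10% leaves little room for a difference, so nothing is read from the counts.

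The 2 members with the widest tissue differences are shown as far as the deposited cytosines give their letters, with n where no listed cytosine gives one and capitals for measured dyads. Both are on the plus strand of rn5, and the last capital C of the second belongs to a dyad that ends 1 base beyond the stretch. The stretches are chr7:139399747-139399826 and chr5:162040450-162040529, of 80 bases each.

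Higher in hypothalamus: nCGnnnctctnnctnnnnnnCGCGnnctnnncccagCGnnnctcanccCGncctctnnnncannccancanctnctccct

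Higher in hippocampus: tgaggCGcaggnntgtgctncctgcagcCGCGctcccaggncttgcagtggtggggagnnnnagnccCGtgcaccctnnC

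The first tile, chr7:139399001-139400000, had 2.14%, 1.04%, 3.94% and 4.22% in hippocampus and 9.94%, 8.30%, 6.22% and 8.98% in hypothalamus. The second, chr5:162040001-162041000, had 7.18%, 9.24%, 8.12% and 8.52% in hippocampus and 4.39%, 4.75%, 1.11% and 1.08% in hypothalamus. Both tiles were picked for a wide difference without overlap of hippocampus and hypothalamus, so their separation is no result. Each difference lay within the range that the rule allows. The tile chr4:8312001-8313000 had 6.62% ± 0.671 in hippocampus and 1.19% ± 0.581 in hypothalamus, and chr10:105631001-105632000 had 1.76% ± 1.66 and 6.70% ± 2.75 (SD, n = 4 each).

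Methylation outside CG took no part in the rule. At CHH cytosines followed by A (CA), members had 0.436%, 0.309%, 3.20% and 3.38% in hippocampus libraries 1 to 4 and 1.17%, 0.246%, 0.378% and 1.11% in hypothalamus libraries 1 to 4, on 735662 to 2427052 calls per library. The other tiles had 2.43%, 2.03%, 4.82% and 5.14% in hippocampus and 3.50%, 2.14%, 2.62% and 3.56% in hypothalamus. Members were lower in 8 of 8 libraries, by a mean of 2.00 points (SD 0.307). The 8 differences ran from -2.45 to -1.63, and the two-sided exact sign-flip permutation test gave p = 0.0078125, the smallest it can give, with a Benjamini-Hochberg adjusted p = 0.00893 over 8 class comparisons. That test takes the 8 libraries as independent. With the libraries numbered 1, and those numbered 4, averaged over the tissues, 6 values remained and the difference was -1.96 points (exact sign-flip permutation p = 0.03125, adjusted p = 0.03125, the smallest that 6 values can give). As a ratio, CA in the other tiles was 1.51 to 8.68 times the level in members, lowest in hippocampus 3 and 4 and highest in hypothalamus 2.

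The other non-CG contexts showed the same direction at smaller size. Members were lower than the other tiles in 8 of 8 libraries at CT, by a mean of 0.671 points, and at CHG, by 0.682 points. At CC the mean difference was -0.0953 points, also lower in 8 of 8 (adjusted exact sign-flip permutation p = 0.00893 for each context). The CC difference was the smallest of the 4. With each library's own CC level subtracted, CA in members was 1.55 points in hippocampus 3, 1.65 in hippocampus 4 and -0.00863 to 0.243 in the other 6 libraries. The mean of 0.470 points was 0.316 without hippocampus 3 and 0.302 without hippocampus 4. In the other tiles it was 2.38 points (1.69 to 3.25). The members, picked for low CG, thus also had lower CA than the other tiles, as levels pooled over each class. CA levels of single tiles were not compared.

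Against dense unmethylated tiles the differences were small. CA was higher in members by 0.0199 points in 8 of 8 libraries (adjusted exact sign-flip permutation p = 0.00893), from 0.00326 to 0.0463. With members and dense tiles both limited to those under 5% in each library, it was no longer past the threshold. The difference was then 0.0143 points (adjusted exact permutation p = 0.102). CHG was higher by 0.0635 points and CT by 0.0382 points, both in 8 of 8. CC was higher by 0.0197 points in 7 of 8 (adjusted exact permutation p = 0.0391), a call lost when hippocampus 3 or 4 or hypothalamus 1, 3 or 4 was left out. Over the 6 averaged values it was 0.0167 points (adjusted exact permutation p = 0.03125). With CC subtracted, the mean CA level of dense tiles was also 0.470 points, and 0.313 without hippocampus 3 or 0.302 without hippocampus 4.

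**Figure D4:**
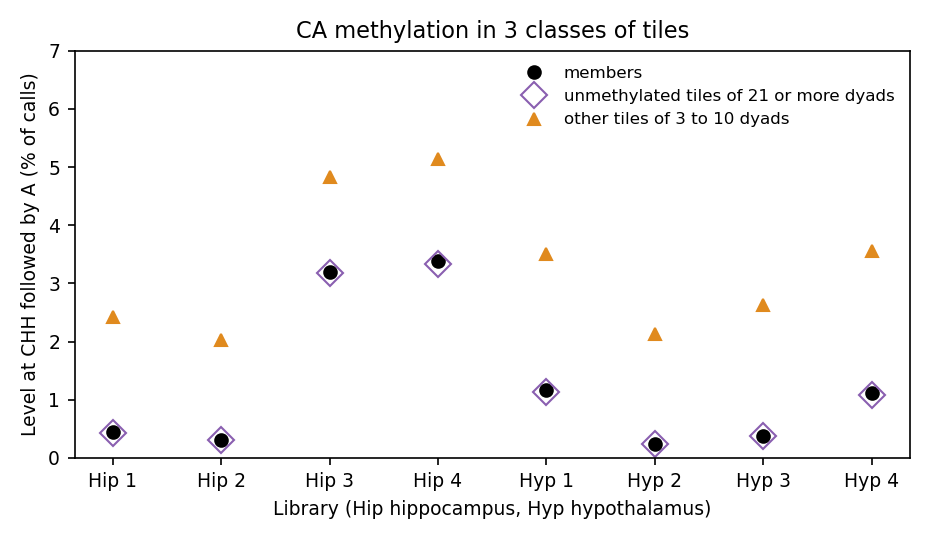
Level at CHH cytosines followed by A in percent of calls (y axis) for each library (x axis) in members, unmethylated tiles of 21 or more dyads and other tiles of 3 to 10 dyads. The points of members and dense tiles coincide at this scale, and the other tiles are 1.63 to 2.45 points above the members in each library.

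No non-CG context of the members differed between the tissues beyond the spread of the libraries. Mean CA was 1.83% ± 1.69 for hippocampus libraries and 0.727% ± 0.483 for hypothalamus libraries (SD, n = 4 each), and the difference was -1.10 points (SE 0.877, exact permutation p = 0.314, adjusted p = 0.533 over 4 contexts). Without hippocampus 3 it was -0.650 points and without hippocampus 4 it was -0.587. The differences were -0.368 points at CC, -0.419 at CT and -0.709 at CHG (exact permutation p = 0.400, 0.543 and 0.314). With 1 library left out they ran from -0.604 to -0.121, from -0.723 to -0.107 and from -1.07 to -0.337, in each case smallest without hippocampus 4. In the 4 libraries of lower CC level, hippocampus 1 and 2 and hypothalamus 2 and 3, the CA difference was -0.0603 points. In the 4 of higher CC level it was -2.15 points, and with 2 libraries per tissue an exact test cannot go below 0.333 in either set. The CA gap between members and other tiles was -1.77 ± 0.155 points in hippocampus libraries and -2.23 ± 0.240 points in those of hypothalamus (SD, n = 4 each). That difference of -0.455 points did not pass (exact permutation p = 0.0571, adjusted p = 0.343).

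Levels rose with distance from the members. The 4603 members formed 4029 runs, 1120 of them had an adjacent member, and the longest run was 4 tiles. The rule bounds these runs, since a neighbour with under 3 or over 10 measured dyads cannot be a member however low its level, so they do not give the length of the low stretch. One such run, chr10:109115001-109119000, had tile levels over the 8 libraries of 1.53%, 0.724%, 0.925% and 4.28%. A tile of 11 to 20 dyads lay within 2 tiles of 1187 members (25.8%). Tiles directly beside a member had a mean CG level of 18.5% ± 1.38 in hippocampus and 19.0% ± 1.02 in hypothalamus, and 56.2% of the 2127 tiles there were under 10% in all libraries. At a distance of 2 tiles the means were 48.1% ± 1.18 and 50.003% ± 1.63, and at 10 tiles 59.8% ± 1.02 and 62.1% ± 1.41 (SD, n = 4 each).

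Beside dense unmethylated tiles the means were 11.5% ± 1.43 and 11.9% ± 1.02 at 1 tile, and they reached 60.0% and 62.1% at 10 tiles. Beside the other tiles the means were 67.8% and 69.8% (SD 0.793 and 1.62, n = 4 each), and at 10 tiles 54.0% and 55.6%. Each profile, that of the members included, leaves out tiles of its own class. The other tiles thus count in the profiles of members and of dense tiles but not in their own, so the profiles average unlike sets. The step was steepest at chr3:155494001-155495000, with 1.27% in the member and 97.8% and 83.1% in the flanks on either side. Among 279 members with a measured non-member tile within 2 tiles on both sides, the median step was 31.6 points and 49 had 50 points or more. Neighbours low enough to be members were left out of the step, so its size follows in part from the rule.

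**Figure D5:**
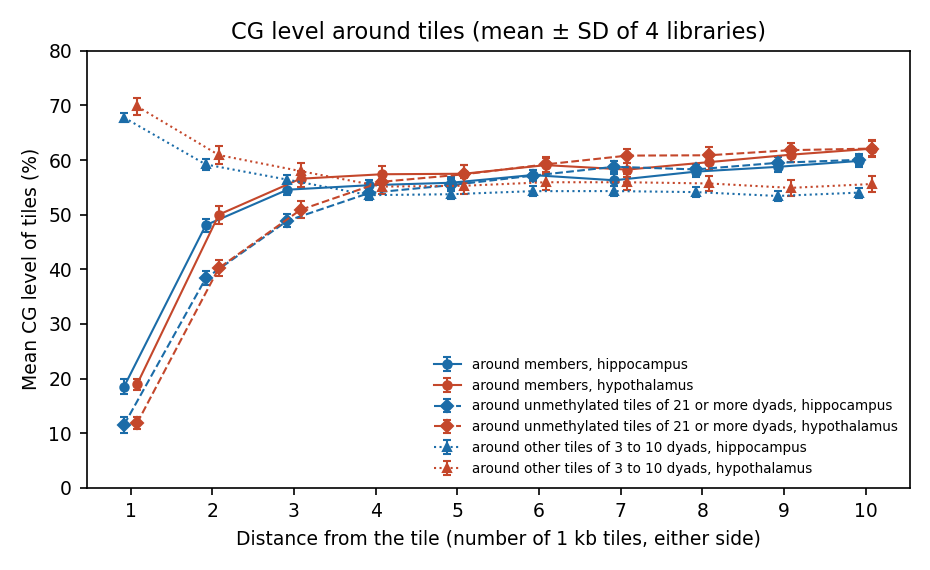
Mean CG level of tiles in percent (y axis) against distance in 1 kb tiles on either side (x axis) around members, unmethylated tiles of 21 or more dyads and other tiles of 3 to 10 dyads, for hippocampus and hypothalamus; points are means and bars SDs of 4 libraries. Around members the level goes from 18.5% and 19.0% at 1 tile to 59.8% and 62.1% at 10 tiles. Each profile leaves out tiles of its own class, so the profiles average unlike sets of tiles.

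The rule set no upper level limit for the tiles around members, so wide differences between the tissues were possible there, as in tiles elsewhere. Flanking tiles were the 4106 tiles with 3 or more dyads within 5 tiles of a member that were not members. Tiles that met the rule were thus left out by their own low CG levels, so the mean level of the flanks follows in part from the rule. The test of that mean, and the calls of single flanking tiles, describe only the tiles that remained. Their mean level was 38.3%, 37.6%, 39.8% and 39.99% in hippocampus libraries 1 to 4 and 40.4%, 39.0%, 39.7% and 41.9% in hypothalamus libraries 1 to 4. The difference of 1.34 points (SE 0.850) was about the size of the spread between libraries and did not pass (two-sided exact permutation p = 0.200). It was 1.41 points in the libraries of lower CC level and 1.27 in those of higher CC level, 0.786 points without hypothalamus 4, and -0.277 points when calls were summed over tiles in place of averaging tile levels. Its direction thus depended on how tiles were weighted.

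Single flanking tiles were tested in a quasi-binomial model of methylated and unmethylated calls, fitted to all tiles with 3 or more dyads and a mean level of 5% to 95%. Calls needed tissue means at least 10 points apart and an adjusted p (Benjamini-Hochberg, over all tiles tested) under 0.05. Of 2672 flanking tiles tested, 258 (9.66%) were called, 228 of them higher in hypothalamus. Over all 75495 tiles tested the share was 11.7%, and 10.5% were called higher in hypothalamus. These tiles included 325 members with a mean level of 5% or more, whose results are not read here because the rule used their levels. The share among flanks was near the background, so it is no result about tiles near members.

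The 3 called flanks with the largest differences in each direction lay 2 to 5 tiles from a member. The members' levels are given for place alone, since the rule holds them under 10% in each library. The tile chr17:89730001-89731000 had 36.5% ± 5.38 in hippocampus and 69.1% ± 7.58 in hypothalamus, a difference of 32.6 points (SE 4.65, adjusted p = 1.34e-04 from the quasi-binomial model with limma). Its member, 5 tiles away, had 1.41% ± 1.68 and 1.20% ± 1.15. At chr10:82884001-82885000 the difference was 31.9 points, and at chr1:102276001-102277000 it was 30.0 points (61.3% ± 5.33 against 91.3% ± 2.20).

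Lower in hypothalamus were 2 adjacent tiles, 2 and 3 tiles from the same member. The tile chr2:251303001-251304000 had 61.2%, 70.9%, 49.3% and 67.7% in hippocampus and 16.9%, 18.3%, 20.2% and 12.7% in hypothalamus, a difference of -45.2 points (SE 5.02, adjusted p = 8.09e-06 from the same model with limma). Its neighbour chr2:251302001-251303000 had 45.6% ± 5.14 and 12.3% ± 4.38. The member chr2:251300001-251301000, 2 tiles from that neighbour, had 2.28% ± 0.856 and 2.47% ± 0.376 (SD, n = 4 each). At chr14:77694001-77695000 the levels were 55.8% ± 5.93 and 21.9% ± 3.29, with a member 4 tiles away at 5.79% ± 2.17 and 3.04% ± 0.799. In each of these 6 flanks every hypothalamus library lay on 1 side of every hippocampus library. The 6 were picked as the called flanks of largest difference, so that separation follows largely from the choice and adds no evidence.

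By chromosome, members were 4.62% of the tiles of 3 to 10 dyads on chromosome 19 and 7.62% on chromosome 10, the extremes. On the X chromosome, outside the rule, 137 of 1133 such tiles (12.1%) met the same limits in these male rats.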

How the data were processed

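Per the labels' protocols, genomic DNA was cut with MspI, fragments of 150 to 300 bases were selected, treated with bisulfite and sequenced on an Illumina HiSeq. Per the submitters' processing notes, Bowtie and the build rn5 were used; the caller, the trimming and the handling of duplicates were not given in the sources used here. In the tables the authors deposited, each listed cytosine has a count of methylated calls, a count of all calls, and a fraction that is their ratio and was not used. No listed position had under 10 calls, and positions below that were not analysed here. Calls need not be independent molecules.

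Calls of both strands of a CpG were added, and levels are percent of summed calls. Each library gave 1 value per test. Exact permutation tests used all 70 assignments of 4 and 4 libraries (smallest p 0.0286) or all 256 sign flips. The tile model used limma 3.58.1 squeezeVar with an F test, edgeR 4.0.16 was an alternative, and R 4.3.3, Python 3.11.15 and scipy 1.17.1 ran the rest. On simulated data the tile test recovered 183 of 200 changed tiles of 74994, and 0.543% of its calls were false. The simulation used the same dispersion for all tiles, drew the libraries independently and changed few tiles, all of middle level. These rates describe that setting and are not rates of the calls on the deposited data.

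A RefSeq window was placed if 40-base anchors with 8 or more cytosines matched, and then 40 or more known letters at 97% or more. The match also had to be at 1 place, on the same chromosome. Of the measured dyads in placed windows, 99.985% fell on CG. The match used those letters too, so this share is no separate check of it. A window belonged to the class of tile that held most of its measured dyads.

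Named tiles were those with most dyads, largest tissue difference without overlap, levels nearest the limit, highest and lowest level, largest step, most calls or the longest run, and the 3 called flanks of largest difference each way. Members and lists were chosen with earlier results of these data known, and shown promoter windows, the class limits of the 96 sorted dyads and the split by CC level were chosen after seeing the data.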

Additional observations from a re-analysis of the deposited data

Results flagged for a closer look

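Of 84 groups of 4 library values tested for a value far from the others, 4 stood out, and chance gives about 4.2. In the flanking tile chr10:82884001-82885000, hypothalamus 1 had 66.2% against 62.1% to 62.5% in the other hypothalamus libraries. In the second Apoe window, outside the members, hippocampus 4 had 53.9% against 43.4% to 44.4%. At Bsn, hypothalamus 3 had 2.38% where the other hypothalamus libraries had 0%. At Tet3, hypothalamus 3 had 0% against 0.599% to 0.694%.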

How the results depend on the processing

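Members are defined by their measured dyads, so their number moved with the counting: plus-strand calls alone gave 6919 tiles, and a limit of 10 dyads listed in any library, added after seeing the data, gave 2380. Leaving out 1 library gave 4023 to 4653. Averaging the libraries numbered 1, and those numbered 4, over the tissues, added after seeing the data, kept the direction and the call of all 8 class comparisons. The CA gap to the other tiles ran from -2.07 to -1.94 over its 14 alternatives, -2.05 to -1.94 of it over libraries left out, and passed in each. The CA difference to dense tiles was 0.0143 (exact permutation adjusted p = 0.102) at a limit of 5% for both classes. It was 0.0162 to 0.0223 with 1 library left out, where it passed. The CC difference to dense tiles was 0.0168 to 0.0232 with 1 library left out, and missed the threshold in 5 of 8. The tissue difference in member CA was -1.61 to -0.587 with 1 library left out and passed in no alternative. The flank difference became -0.277 when calls were summed over tiles in place of averaging tile levels, and was 0.786 to 1.76 with 1 library left out. Flank calls were 45 of 2672 at 20 points (1.68%, against 2.89% of all tiles), 103 of 1217 within 2 tiles (8.46%) and 494 of 4793 within 10 tiles (10.3%), both against 11.7%, 141 of 2672 with the dispersion of each tile alone (5.28% against 6.75%), 257 of 2672 with edgeR (9.62% against 11.5%) and 204 to 289 with 1 library left out. With the replicate number as a block they were 298 (11.2% against 13.0%). Deviations of same-numbered libraries correlated at 0.169, 0.0678, 0.0876 and 0.172 for numbers 1 to 4, each the highest with its own number. At the 96 sorted dyads, however, libraries numbered 2 shared the class at 41.7% and those numbered 3 at 31.25%. The block is therefore not treated as a pairing of all 4. For the tissue differences it allows no exact p below 0.125, so those tests could not pass under it. Hypothalamus 3, at a median of 24.9 calls per member dyad, was the least precise library.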
